A study of Mus musculus with 2 samples.

Results

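GABA-A receptors are the chloride channels through which the transmitter GABA acts fastest, and the genes described here encode 7 of their subunits: the alpha subunits Gabra2, Gabra3, Gabra5 and Gabra6, the beta subunits Gabrb1 and Gabrb2, and the gamma subunit Gabrg1. They were chosen by symbol, matched through Ensembl identifiers, and make up 7 of the 43346 mouse genes listed. Another 12 GABA-A subunit genes were listed and are given further on for comparison. RNA came from whole hindbrains of B6NCrl mice at postnatal day 0, 1 library from pup 3 (replicate 2) and 1 from pup 1 (replicate 1) with no treatment given in the labels. The input was 13 pg of RNA above 200 nt per library, called 1 cell-equivalent. It was drawn from a whole hindbrain and not from an isolated cell, although the labels name a single-cell assay. One donor record is attached to both animals, and their sex was not recorded. Both libraries belong to 1 group, so no test between groups was possible, and every difference between pups below is a description with no replicate check.

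A GABA-A receptor is a ring of subunits around a chloride pore, most often built from alpha, beta and gamma subunits. GABA binds between alpha and beta, and drugs of the benzodiazepine class bind between alpha and gamma. In newborn neurons the chloride gradient is such that GABA often depolarises the cell, and the subunit makeup shifts as the brain matures. In rodents Gabra2, Gabra3 and Gabra5 are known as alpha subunits of the embryonic and newborn brain, whereas Gabra6 is known from cerebellar granule cells and appears as these cells mature after birth.

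The alpha members differ in a codon that decides whether classical benzodiazepines bind. The coding strand around it is printed here from the reference genome (GRCm38, GENCODE M21), 48 bases for each gene, 5′ to 3′, with that codon in capitals. Gabra2 lies at chr5:71014487-71014534, Gabra3 at chrX:72501150-72501197, Gabra5 at chr7:57488873-57488920 and Gabra6 at chr11:42317629-42317676, all on the minus strand and each within 1 coding exon.
Gabra2: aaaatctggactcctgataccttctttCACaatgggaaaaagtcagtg
Gabra3: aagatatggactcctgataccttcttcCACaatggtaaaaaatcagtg
Gabra5: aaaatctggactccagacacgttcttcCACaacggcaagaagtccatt
Gabra6: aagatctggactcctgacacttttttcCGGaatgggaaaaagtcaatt
Gabra2, Gabra3 and Gabra5 carry the codon CAC for histidine, with which diazepam binds, and Gabra6 carries CGG for arginine, which is known to make alpha6 receptors insensitive to diazepam. Over the 48 bases Gabra2 and Gabra3 differed at 5 positions, and Gabra6 differed from the other alpha members at 9 or 10.

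The beta members differ in a codon of the second membrane segment, which lines the pore, on which the action of the anaesthetic etomidate depends. The coding strands are shown in the same way, with Gabrb1 at chr5:72121954-72122001 and Gabrb2 at chr11:42597546-42597593, both on the plus strand.
Gabrb1: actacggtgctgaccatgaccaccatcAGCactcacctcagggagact
Gabrb2: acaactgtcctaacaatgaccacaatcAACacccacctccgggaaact
Gabrb1 carries AGC for serine and Gabrb2 carries AAC for asparagine, the form known for strong sensitivity to etomidate. The segments differed at 10 of 48 bases. Across the full coding sequences of the 7 members, the 21 pairs were 59.1% to 73.4% identical. Gabra2 with Gabra3 (73.4%) and Gabrb1 with Gabrb2 (72.7%) were close pairs whose order turned with the gap penalties of the alignment, at 70.4% and 71.1% under stricter ones. The longest stretch shared letter for letter was 24 nt, between Gabra3 and Gabra5. The deposited posterior standard deviation of the members' gene counts, which measures how uncertainly reads were divided between genes, was 0 for every member except Gabra5 (0.38 counts in pup 3 and 0.25 in pup 1).

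The libraries held 29866728 expected counts in pup 3 and 35462381 in pup 1. Nuclear mouse genes took 94.7% of the counts in pup 3 and 94.4% in pup 1, and 9272 protein-coding genes in pup 3 and 10735 in pup 1 reached the detection limit of 5 expected counts. Of the 8 hindbrain position markers 7 were detected in both pups, with a summed level of 512.9 TPM in pup 3 against 500.1 TPM in pup 1 (TPM is the share of a transcript among all transcripts, corrected for length), and En2 was at 0. Of the 8 forebrain position markers 2 were detected, Neurod6 (49.4 TPM in pup 3, 18.6 TPM in pup 1) and Otx1 (9.67 TPM in pup 3, 7.92 TPM in pup 1). The forebrain genes Dlx1, Dlx2, Emx1, Emx2 and Six3 had 0 counts in both. All levels below are TPM rescaled over the nuclear genes, a measure that divides counts by transcript length, so they can be compared between genes.

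Of the 7 subunit genes, 6 were detected in both pups and 1, Gabra6, in neither. Among all 21461 protein-coding nuclear genes 37.8% were detected in both pups and 44.5% in neither, and among genes with a mean level in the range of the 6 detected members 87% were detected in both. The 6 detected members had mean levels of 18.9 to 68.9 TPM, above those of 70.6% to 88.1% of protein-coding genes. Gabra5, Gabra3 and Gabra2 led the order of mean levels, followed by Gabrb1, Gabrg1 and Gabrb2, with Gabra6 last at 0. The place of Gabra3 in this order depended on the transcript length used, as described below.

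**Figure D1:**
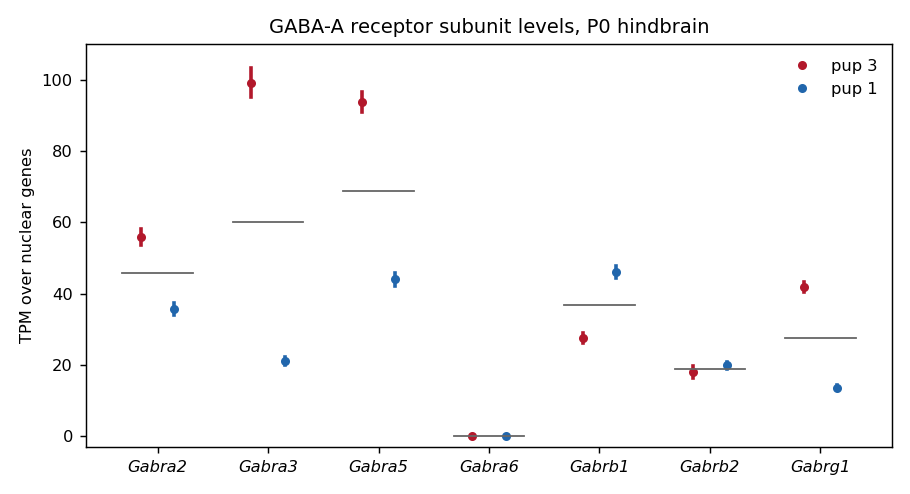
Level of each subunit gene in TPM over nuclear genes, in pup 3 (red, left) and pup 1 (blue, right), with 95% exact Poisson intervals of the counts on the TPM scale as vertical bars (counting error only) and means of the 2 pups as grey lines. Gabra3 is widest apart, at 99.1 TPM in pup 3 against 21.0 TPM in pup 1, and Gabra6 is at 0 in both.

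Gabra2 (ENSMUSG00000000560, chr5:70957597-71095849, minus strand) encodes an alpha subunit common at synapses of the young brain. It had 2337 counts and 55.8 TPM in pup 3, against 1694 counts and 35.7 TPM in pup 1, a mean of 45.7 ± 14.2 TPM (SD, n = 2). Its level was higher in pup 3, where its share of nuclear counts was 1.63 times that in pup 1 (95% counting interval 1.53 to 1.74). Intervals of this kind, exact for the counts of a pair of libraries, cover counting error only, since reads copied by PCR are not independent molecules. The 1 transcript listed for Gabra2 has 2392 nt. Its M21 version, of 2245 nt, is typed as a target of nonsense-mediated decay. The longest M21 transcript of the gene has 5852 nt, so the TPM of Gabra2 rests on a partial gene model.

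Gabra3 (ENSMUSG00000031343, chrX:72432681-72656848, minus strand) encodes an alpha subunit known from developing brain and from brainstem nuclei. It had 2237 counts and 99.1 TPM in pup 3, against 1432 counts and 21.0 TPM in pup 1, a mean of 60.1 ± 55.3 TPM (SD, n = 2). Its TPM in pup 3 was 4.73 times that in pup 1, but its share of nuclear counts was only 1.85 times that in pup 1 (interval 1.73 to 1.98). The transcripts to which its reads were assigned, described below, differed between the pups.

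Gabra5 (ENSMUSG00000055078, chr7:57407672-57510059, minus strand) encodes an alpha subunit that in the adult is best known outside synapses, where it carries tonic inhibition. It had 4377 counts and 93.8 TPM in pup 3, against 2327 counts and 44.0 TPM in pup 1, a mean of 68.9 ± 35.3 TPM (SD, n = 2). It had the most counts of the members in pup 3, and its count share was 2.23 times that in pup 1 (interval 2.12 to 2.34). Its exons overlap by 148 nt with Gm9962 on the opposite strand, and the labels do not say whether counting used strand. The listed transcripts of the other members share no annotated exons with another gene. Exons of transcripts that were not listed were not checked.

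Gabra6 (ENSMUSG00000020428, chr11:42306437-42321072, minus strand) was at 0 in each of its 3 listed transcripts. By counting error alone, a count of 0 allows up to 3 counts, which is a level of up to 0.0800 TPM in pup 3 and of up to 0.0705 TPM in pup 1. The same 3 counts stand for 0.126 TPM of Gabrb2 in pup 3 and 0.0372 TPM in pup 1, so detection limits were far below the measured levels of the other members. Granule neuron markers were present beside it: 7 of 9 were detected in both pups, with summed levels of 278.7 TPM in pup 3 against 294.5 TPM in pup 1, and Atoh1, which marks granule cell precursors, was at 0 in both. Cbln1, made by granule neurons, had 39.6 TPM in pup 3 against 37.7 TPM in pup 1.

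Gabrb1 (ENSMUSG00000029212, chr5:71658113-72149037, plus strand) was the higher beta member in both pups. It had 1504 counts and 27.5 TPM in pup 3, against 2855 counts and 46.1 TPM in pup 1, a mean of 36.8 ± 13.1 TPM (SD, n = 2). It was lower in pup 3, with 0.623 times the count share of pup 1 (interval 0.585 to 0.664). The listed transcript has 3089 nt, whereas its M21 version has 13737 nt, of which 12231 nt lie after the coding part. The M21 version is 10648 nt longer, and reads over sequence outside the listed model are not part of the deposited counts.

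Gabrb2 (ENSMUSG00000007653, chr11:42419757-42629028, plus strand) encodes the beta subunit of the commonest receptors of the adult brain. It had 425 counts and 17.9 TPM in pup 3, against 1599 counts and 19.8 TPM in pup 1, a mean of 18.9 ± 1.37 TPM (SD, n = 2). In TPM the ratio of pup 3 over pup 1 was 0.902, the smallest difference among the detected members. In counts they were far apart, with a share in pup 3 that was 0.314 times that in pup 1 (interval 0.282 to 0.350).

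Gabrg1 (ENSMUSG00000001260, chr5:70751047-70842617, minus strand) encodes a gamma subunit that in the cerebellum is known from Bergmann glia. It had 3563 counts and 41.8 TPM in pup 3, against 1316 counts and 13.6 TPM in pup 1, a mean of 27.7 ± 19.9 TPM (SD, n = 2). Its count share in pup 3 was 3.20 times that in pup 1 (interval 3.01 to 3.41), the largest ratio of count shares among the members. The astrocyte, radial glia and Bergmann glia markers did not lie on the same side. Of 9 markers 8 were detected in both pups, 1 of these was higher and 7 were lower in pup 3, and their summed levels were 4264 TPM in pup 3 against 4600 TPM in pup 1. In bulk RNA such as this, fewer cells of a type and less RNA per cell cannot be told apart.

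The order of levels differed between the pups. In pup 3 it ran Gabra3, Gabra5, Gabra2, Gabrg1, Gabrb1, Gabrb2, Gabra6, and in pup 1 it ran Gabrb1, Gabra5, Gabra2, Gabra3, Gabrb2, Gabrg1, Gabra6. Gabra5 and Gabra2 kept the same places in both, and Gabra6 was last in both. In the order of mean levels every pair of neighbours had overlapping ranges over the pups, except Gabrb2 and Gabra6. The levels therefore separate Gabra6 from the 6 other subunits and do not separate those 6 from their neighbours beyond the spread of the 2 pups.

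On the log2 scale, with 1 TPM added, the difference of pup 3 over pup 1 was 0.63 for Gabra2, 2.19 for Gabra3 and 1.08 for Gabra5. It was -0.72 for Gabrb1, -0.14 for Gabrb2 and 1.55 for Gabrg1. Thus 4 members were higher and 2 lower in pup 3, although Gabrb2 moved to 0.00 when levels were scaled to the spike-in total. That scaling shifted the median of all genes by 0.14 on the log2 scale. The median difference of the 6 detected members was 0.85, beside 0.14 for the 8102 protein-coding genes detected in both pups. The median size of the difference regardless of sign was 0.90 for the members and 0.94 for those genes, so as a group the subunits were about as far apart between pups as the other genes were.

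Among the 6 members with at least 50 counts in 1 pup, 1 was at least 4-fold apart in TPM, namely Gabra3. The same held for 39.8% of the 11245 protein-coding genes with that many counts, with 16.2% higher and 23.6% lower in pup 3, and for 31.9% of the genes in the members' range of mean levels. By CPM, the count scaled to the nuclear total of its library with no transcript length, no member and 42.5% of the same genes were at least 4-fold apart. Pan-neuronal markers were detected in both pups for 8 of 8 genes, with 5 higher and 3 lower in pup 3 and summed levels of 4883 TPM in pup 3 against 7208 TPM in pup 1. The part that cell makeup had in the members' differences was not tested.

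**Figure D2:**
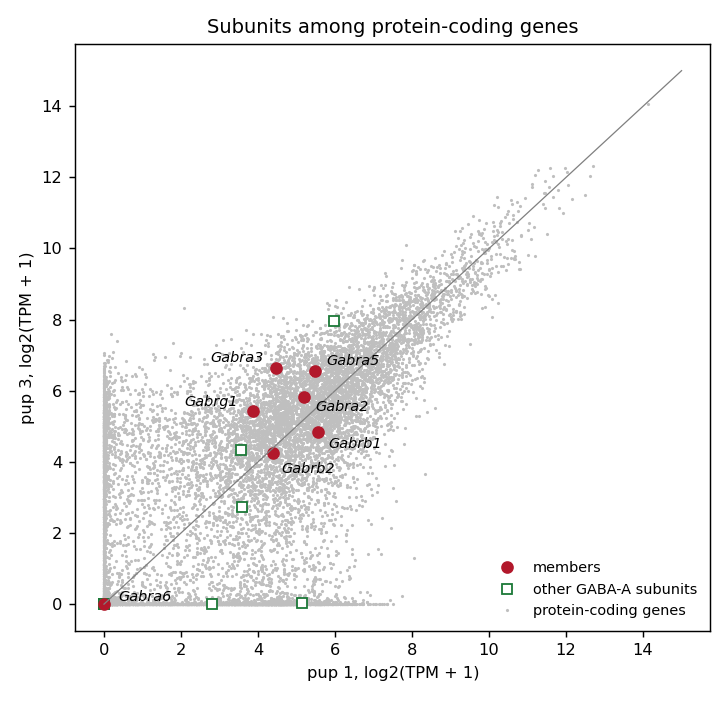
Level of every protein-coding gene (grey points), of the 7 members (red) and of the 12 other GABA-A subunits (green squares), pup 3 on the vertical and pup 1 on the horizontal axis, both as log2(TPM + 1). The line marks equal levels, and 4 members lie above it while Gabrb1 and Gabrb2 lie below, Gabrb2 by a log2 difference of -0.14 that became 0.00 when scaled to the spike-in total.

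TPM and counts gave different pictures for Gabra3 and Gabrb2, the only detected members with more than 1 listed transcript. TPM divides counts by an effective length, averaged over the transcripts to which reads were assigned. That length was 1235 nt in pup 3 and 3296 nt in pup 1 for Gabra3. For Gabrb2 it was 1300 nt in pup 3 and 3890 nt in pup 1. Both genes thus had shorter assigned transcripts in pup 3, and the other members had equal lengths in both pups. Effective lengths more than 2-fold apart occurred in 663 of the 8102 genes detected in both pups, or 8.18%.

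**Figure D3:**
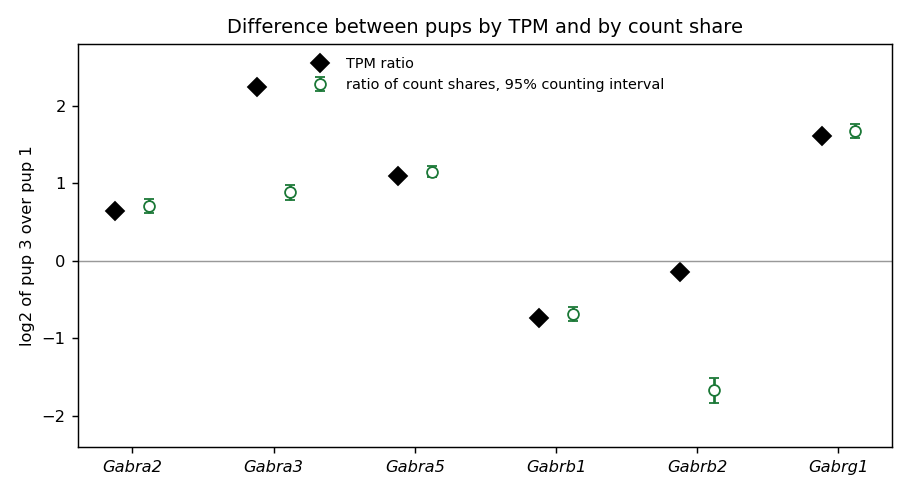
Ratio of pup 3 over pup 1 on the log2 scale for the 6 detected members, from TPM (black diamonds) and from shares of nuclear counts (green circles with 95% counting intervals). The 2 measures lie apart for Gabra3 (TPM ratio 4.73, count-share ratio 1.85) and Gabrb2 (0.902 and 0.314) and close together for the other 4.

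With 1 length for both pups, that of the longest listed transcript, Gabra3 came to 34.4 TPM in pup 3 against 19.4 TPM in pup 1, a ratio of 1.77. Gabrb2 came to 5.98 TPM in pup 3 against 19.8 TPM in pup 1, a ratio of 0.301. On this scale Gabra3 in pup 3 stood below Gabra5 (93.8 TPM), Gabra2 (55.8 TPM) and Gabrg1 (41.7 TPM). The mean of Gabra3, 26.9 TPM, lay below those of Gabra5 (68.9 TPM), Gabra2 (45.7 TPM), Gabrb1 (36.8 TPM) and Gabrg1 (27.7 TPM). In pup 3 Gabrb2 stood well below Gabrb1 (27.5 TPM). The 1-length scale was chosen after seeing the data.

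IsoPct in the transcript tables is a transcript's percentage of the TPM of its gene. For Gabra3 the coding transcript of 1790 nt (ENSMUST00000114554) took 59.9% in pup 3 and 11.8% in pup 1. The coding transcript of 3662 nt (ENSMUST00000055966) took 0.860% in pup 3 and 86.7% in pup 1. A non-coding transcript of 589 nt (ENSMUST00000137517) took 39.3% in pup 3 and 1.53% in pup 1. The leading transcript of Gabra3 was therefore the 1790-nt form in pup 3 and the 3662-nt form in pup 1.

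In counts, the 1790-nt form of Gabra3 had 1833 in pup 3 and 86.4 in pup 1, with deposited posterior standard deviations of 11.9 in pup 3 and 29.8 in pup 1. The 3662-nt form had 55.7 counts in pup 3 and 1342 in pup 1, with standard deviations of 8.40 in pup 3 and 30.0 in pup 1. The contrast in leader was much larger than the stated uncertainty of dividing reads between transcripts. That uncertainty does not include variation between libraries. The 1790-nt form holds all 1476 coding bases of the long form and 123 coding bases of its own, and lacks 2074 nt of the long form. The long form has 1971 nt after its coding part, and the 1790-nt form has 77 nt.

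**Figure D4:**
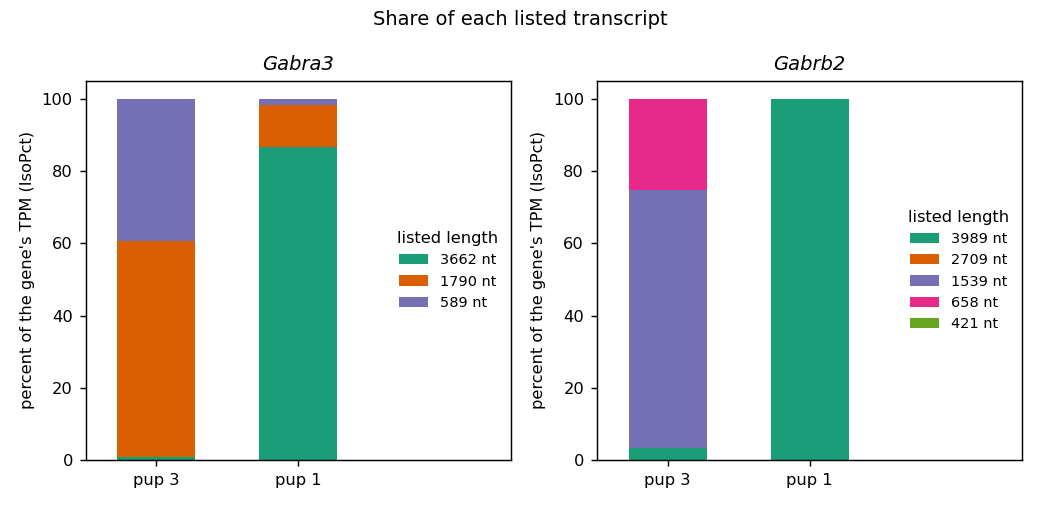
Percent of each gene's TPM assigned to each listed transcript of Gabra3 (left) and Gabrb2 (right), pup 3 beside pup 1, with transcripts given by listed length. The longest transcript takes 0.860% in pup 3 and 86.7% in pup 1 for Gabra3, and 3.37% in pup 3 and 100% in pup 1 for Gabrb2.

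Gabrb2 showed the same kind of contrast. Its coding transcript of 1539 nt (ENSMUST00000192403) took 71.4% in pup 3 and 0% in pup 1, and its coding transcript of 3989 nt (ENSMUST00000007797) took 3.37% in pup 3 and 100% in pup 1. A non-coding transcript of 658 nt (ENSMUST00000136050) took 25.2% in pup 3 and 0% in pup 1. The 1539-nt form held 336 counts in pup 3 and 0 in pup 1, and the 3989-nt form 42.9 counts in pup 3 and 1599 in pup 1. The deposited posterior standard deviation of the 1539-nt form was 6.80 counts in pup 3 and 3.71 in pup 1. Neither gene had the same leading transcript in both pups, and this was so too by share of counts and by the deposited posterior means.

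The 1539-nt form of Gabrb2 differs from the 3989-nt form inside the protein as well as in length. It holds all 1422 coding bases of the long form and 1 further coding block of 114 bases, 38 codons in frame after 1077 coding bases, at chr11:42602115-42602228 on the plus strand of GRCm38. A longer beta2 form with an insertion in the large intracellular loop is known from human. The block is printed because it is the coding sequence particular to the transcript that led in pup 3, with none of it in capitals.
Gabrb2 block: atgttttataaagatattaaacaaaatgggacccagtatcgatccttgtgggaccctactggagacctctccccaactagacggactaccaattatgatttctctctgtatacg
The 1539-nt form is also modelled with no sequence before its coding part and 3 nt after it, whereas the long form has 427 nt before and 2140 nt after. Reads that fall only in the shared coding bases do not tell these forms apart, and coverage along the transcripts was not analysed here. Coverage, as a source of the contrast in Gabra3 and Gabrb2, was not tested.

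**Figure D5:**
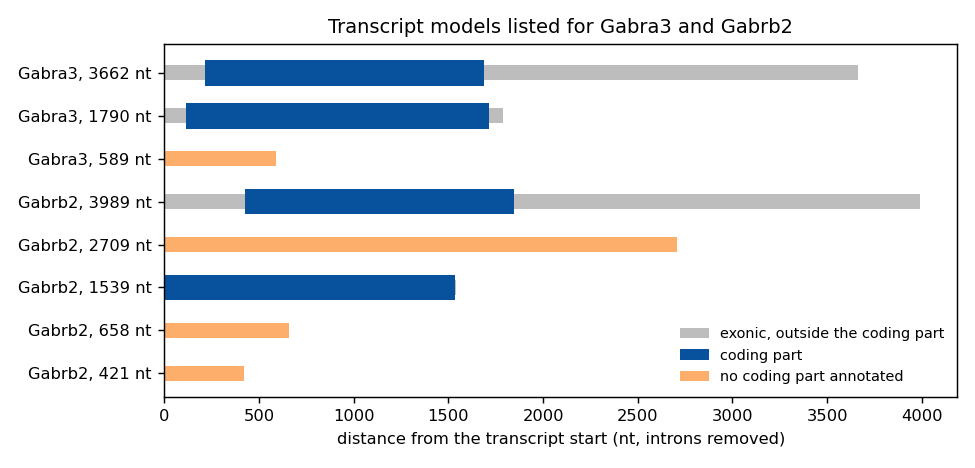
Listed transcript models of Gabra3 and Gabrb2 drawn to scale from their starts with introns removed (horizontal axis in nt), with coding parts in blue, other exonic parts in grey and transcripts with no annotated coding part in orange. The forms that led in pup 3 (1790 and 1539 nt) end soon after the coding part, and the forms that led in pup 1 (3662 and 3989 nt) have long ends after it.

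Summed over the 7 members, the level was 335.9 TPM in pup 3 against 180.1 TPM in pup 1, a ratio of 1.87. By CPM the sums were 510.6 in pup 3 and 335.4 in pup 1, a ratio of 1.52. Alpha members took 74.0% of the summed TPM in pup 3 and 55.9% in pup 1. Beta members took 13.5% in pup 3 and 36.6% in pup 1, and Gabrg1 took 12.4% in pup 3 and 7.55% in pup 1. With 1 length for both pups the alpha share was 71.0% in pup 3 and 55.5% in pup 1.

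Within the alpha members, Gabra3 took 39.9% in pup 3 and 20.8% in pup 1. Gabra5 took 37.7% in pup 3 and 43.7% in pup 1, and Gabra2 took 22.4% in pup 3 and 35.4% in pup 1. With 1 length the Gabra3 share was close in both pups, at 18.7% in pup 3 and 19.6% in pup 1, and Gabra5 led in both, at 51.0% in pup 3 and 44.4% in pup 1. Among the beta members Gabrb1 took 60.6% in pup 3 and 69.9% in pup 1, and with 1 length 82.2% in pup 3 and 69.9% in pup 1. The order of these Gabrb1 shares between the pups thus turned with the length used.

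Subunit genes lie in clusters, and the members were detected unevenly along them. On chromosome 5 the order is Gabrg1, Gabra2, Gabra4 and Gabrb1, all detected in both pups. On chromosome 11 Gabra6, at 0, lies 98.7 kb from Gabrb2, which was detected in both pups. On chromosome 7 Gabra5 lies next to Gabrg3, at 0. On the X chromosome Gabra3 lies between Gabre, at 0, and Gabrq. A gene at 0 thus stood next to a detected member in 3 of these clusters.

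Of the 12 other subunits, 3 were detected in both pups, 2 in pup 1 only and 7 in neither. Gabra4, an alpha subunit known from receptors outside synapses, had 5.68 TPM in pup 3 against 10.96 TPM in pup 1, below every detected member in both pups. In pup 3 it was close to Gabrb2 by counts (418 for Gabra4, 425 for Gabrb2). It was also close there to the 5.98 TPM of Gabrb2 on the 1-length scale. Gabrq had 0 counts in pup 3 and 606 in pup 1. Its level in pup 1 was 124 times the level that 3 counts would stand for in pup 3. That bound covers counting error only, and does not cover molecules lost or reads copied by PCR. Over all protein-coding genes 12.3% were detected in pup 1 only. Gabrd, Gabre, Gabrg3, Gabrp, Gabrr1, Gabrr2 and Gabrr3 had 0 counts in both pups.

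Of the genes listed for GABA-A receptor clustering and synaptic adhesion, 9 of 11 were detected in both pups, 5 of them higher and 4 lower in pup 3. Over all protein-coding genes 37.8% were detected in both pups. Gphn, the scaffold gephyrin, had 25.6 TPM in pup 3 against 43.9 TPM in pup 1, near the level of Gabrb1 in each pup. Lhfpl4, a partner of the receptor at synapses, had 47.7 TPM in pup 3 against 37.5 TPM in pup 1. Dag1, encoding dystroglycan, had 28.2 TPM in pup 3 against 45.7 TPM in pup 1. Iqsec3 was detected in pup 3 only (1287 counts in pup 3, 0 in pup 1), and Shisa7 in pup 1 only (0 in pup 3, 168 in pup 1). Of the assembly and trafficking genes 15 of 16 were found in both pups, led by Maged1, Gabarap, Gabarapl2 and Nsf. Gabarap, a protein that binds gamma subunits, had 737.4 TPM in pup 3 against 266.5 TPM in pup 1. The exception was Arfgef2, with 0 counts in pup 3 and 103 in pup 1.

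Of the genes for GABA synthesis, release, uptake and GABA-B receptors, 8 of 10 were detected in both pups. Gad1, which makes GABA, had 106.4 TPM in pup 3 against 120.0 TPM in pup 1. The uptake gene Slc6a13 (106.6 TPM in pup 3, 85.2 TPM in pup 1) and the GABA-degrading enzyme gene Abat (114.5 TPM in pup 3, 66.8 TPM in pup 1) stood at like levels. Slc32a1, which loads GABA into vesicles, had 0 counts in pup 3 and 122 in pup 1. Dbi, whose peptide acts at the benzodiazepine site, had 2726 TPM in pup 3 against 1945 TPM in pup 1, far above the members. Of the neurosteroid genes, Srd5a1 had 29.4 TPM in pup 3 against 35.7 TPM in pup 1, and Akr1c14 had 0 counts in both. Tspo had 656 counts in pup 3 and 1 in pup 1. Over all these lists, the other subunits included, 37 of 53 genes were detected in both pups, beside 6 of the 7 members.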

How the data were processed

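Per the deposited notes and the labels, RNA above 200 nt was extracted with mirVana, libraries followed a Smart-seq protocol, and tables were made on mm10 with annotation M4 from transcriptome alignments. Per the file headers, the authors deposited for genes and transcripts an expected count (reads shared among transcripts are split), TPM, FPKM, effective length, posterior means and standard deviations of counts, credibility bounds of TPM (a score here, drawn in no figure), and, for transcripts, the percent of a gene's TPM (IsoPct). The layout is that of RSEM. Aligner, quantifier, versions and strand use: not given in the sources used here.

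Identifiers were matched to GENCODE M21 on GRCm38 by stable ID (42462 of 43346 genes), from which symbols, coordinates and sequences were taken. From the deposited TPM, values were rescaled over the 43309 nuclear mouse genes with pandas 2.3.3, and CPM was computed as the share of nuclear expected counts. Exact count intervals (95%) came from scipy 1.17.1 and coding alignments from Biopython 1.88. Detection took 5 expected counts, the log2 scale a pseudocount of 1, the 4-fold rule 50 counts in 1 pup, and a bound against 0 took 3 counts. The 4-fold rule was tried on simulated counts with counting error only and the same effective length for both pups. That setting does not cover reads copied by PCR or lengths that differ between pups, as for Gabra3. Scaling factors came from edgeR 4.0.16 and DESeq2 1.42.0 in R 4.3.3 on expected counts rounded to whole numbers, with no test. A planned protein comparison was replaced by one of coding sequence.

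The members, gene lists and naming rule were chosen with earlier results of these data known. The rule named all members, their transcripts with an IsoPct of at least 10, all other subunits, the 4 highest genes of each pathway list with those at 0 or detected in 1 pup, and the 3 highest of each marker list. Genes at 0 in the forebrain, hindbrain and granule lists were named because they are counted. Some genes that the rule names are left out of the text.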

Additional observations from a re-analysis of the deposited data

How the results depend on the processing

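Detection of 6 of 7 members held at 1, 10 and 50 counts, at 1 TPM and with posterior mean counts. The median of the members' mean levels, 36.8 TPM, was 21.9 with FPKM and 66.6 with CPM, which are other units, and 21.0 to 41.8 with each pup alone. The count of members at least 4-fold apart, 1, was 3 at 2-fold, 0 at 8-fold and 0 with CPM, an alternative chosen after seeing the data. Gabra3 (log2 2.19 in TPM, 0.87 in CPM) is the member that ends this call, and its effective length differs between pups. The median log2 difference of the members stayed between 0.75 and 1.00 under every scaling and pseudocount tried. The alpha share of the members, 64.9% on average, was 55.9% to 74.0% with each pup alone. Leading transcripts of Gabra3 and Gabrb2 differed between pups under each measure tried. Pathway genes detected in both pups numbered 34 to 39 across limits. No paired analysis was possible because the 2 libraries form 1 group. With 1 library per pup of 13 pg input, differences between animals and between preparations cannot be told apart.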

Other observations

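Markers of cell types other than neurons and astroglia differed in how evenly they were captured. Choroid plexus genes were close in both pups, with Ttr at 3380 TPM in pup 3 against 3028 TPM in pup 1 and 4 of 5 markers detected in both. Oligodendrocyte-lineage markers were detected in both pups for 5 of 7, among them Mbp (199.6 TPM in pup 3, 301.9 TPM in pup 1). Of 5 endothelial and pericyte markers 3 were detected in both pups, and Flt1 had 4782 counts in pup 3 and 0 in pup 1. Among the 6 microglial markers, 2 were found in both pups, 2 were missing from pup 1 and 2 were missing from pup 3, and P2ry12 was at 940 counts in pup 3 and 0 in pup 1. Purkinje and inhibitory neuron markers were detected in both pups for 8 of 9, with summed levels of 1267 TPM in pup 3 against 1207 TPM in pup 1.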
